A study of Mus musculus with 63 samples.

Results

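Among the genes measured in single neurons of the mouse primary visual cortex (V1) that either answered a light stimulus (LS cells) or did not (NS cells) are 10 that encode enzymes of glycolysis and brain creatine kinase. They were taken by symbol from the table of FPKM values (fragments per kilobase of exon, scaled to the reads of the cell), namely Hk1, Aldoa, Aldoc, Pgk1, Eno1, Eno2, Pkm, Ldha, Ldhb and Ckb, and all 10 of 10 were present among its 20183 genes. Each library was made from the soma of 1 layer 2/3 cell, drawn into a patch pipette in a lightly anaesthetised mouse after its calcium response to drifting gratings had been scored. All mice were wild-type C57BL/6 animals aged 70 days, no group carried a transgene or a drug treatment, and the tissue label is brain. The table holds 46 LS and 17 NS cells. The quality filters of the study, applied again to the deposited values, left 35 LS and 12 NS cells, with fewer LS cells than the study kept. The labels do not say which mouse a cell came from, so each group of cells counted as 1 sample, no test between LS and NS was made, every SD is the spread between cells, and counting intervals cover counting error only because Smart-seq2 reads carry no molecular identifiers.

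Glycolysis splits glucose into pyruvate in the cytosol and yields ATP on the way, and lactate dehydrogenase turns pyruvate into lactate and back. Several steps are served by isozymes with a cell-type bias. In brain, aldolase A is present in neurons and enolase 2 (neuron-specific enolase) is typical of them, whereas aldolase C is best known from astrocytes and from bands of cerebellar Purkinje cells. Enolase 1 is used by most cells, and lactate dehydrogenase is a tetramer of A and B subunits that favour lactate and pyruvate formation, respectively. Creatine kinase B moves phosphate between ATP and creatine and so buffers ATP where demand changes fast.

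NS libraries were shallower. The recovered read total ran from 366965 to 2510220 in LS cells (median 873518) and from 153536 to 891303 in NS cells (median 324057), and the median cell had 5890 and 3061.5 genes above 1 FPKM. Sensory receptor genes, which a cortical neuron is not expected to transcribe, reached more than 10% of the level of an even spread of reads over exons in 4 of 35 LS cells and in 9 of 12 NS cells. At least 1 of 6 pan-neuronal markers was read in 35 of 35 LS cells and 11 of 12 NS cells, with a median summed level of 624 FPKM against 26 FPKM, so that the neuronal label was weakly borne out in several NS cells. The share of these differences in the values below was not tested, and in single-cell libraries of unequal depth less RNA per cell and poorer capture cannot be told apart.

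The promoters of 4 members are shown, for the largest and the lowest ratio in the filtered cells, for a known hypoxia target and for the member with the highest mean FPKM. RefSeq gave 18 windows for the 10 genes on GRCm38.p6, each of 300 bases from 250 bases before to 50 bases after a start site, and capitals mark the core of the hypoxia response element (ACGTG or GCGTG), the cAMP response element (TGACGTCA) and the TATA box (TATAAA), all read on both strands. The upstream window of Ldha (chr7:46845554-46845853, plus strand), the gene with the largest LS to NS ratio in the filtered cells, held hypoxia cores and the only cAMP element among the 18 windows. Pgk1 (chrX:106186850-106187149, plus strand) is a textbook hypoxia target, Aldoc (chr11:78322823-78323122, plus strand) was the one member with a much higher mean in NS cells, and Ckb (chr12:111672289-111672588, minus strand) had the highest mean in both groups. The letters stand 5′ to 3′ along each gene.
Ldha: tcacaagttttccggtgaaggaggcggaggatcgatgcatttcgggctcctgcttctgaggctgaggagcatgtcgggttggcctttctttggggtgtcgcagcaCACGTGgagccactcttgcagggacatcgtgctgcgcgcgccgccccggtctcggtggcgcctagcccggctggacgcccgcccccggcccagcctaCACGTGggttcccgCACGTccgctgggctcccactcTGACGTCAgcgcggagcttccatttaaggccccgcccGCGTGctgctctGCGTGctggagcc
Pgk1: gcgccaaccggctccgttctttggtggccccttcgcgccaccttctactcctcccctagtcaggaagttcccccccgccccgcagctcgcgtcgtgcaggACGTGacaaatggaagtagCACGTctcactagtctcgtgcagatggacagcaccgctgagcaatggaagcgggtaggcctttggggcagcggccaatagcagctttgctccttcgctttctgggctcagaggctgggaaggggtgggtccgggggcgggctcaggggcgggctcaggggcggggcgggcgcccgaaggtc
Aldoc: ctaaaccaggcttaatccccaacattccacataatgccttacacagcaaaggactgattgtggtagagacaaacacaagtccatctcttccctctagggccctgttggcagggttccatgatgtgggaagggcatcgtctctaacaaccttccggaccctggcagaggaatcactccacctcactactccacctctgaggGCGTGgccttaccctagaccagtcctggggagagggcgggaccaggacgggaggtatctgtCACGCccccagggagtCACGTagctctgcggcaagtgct
Ckb: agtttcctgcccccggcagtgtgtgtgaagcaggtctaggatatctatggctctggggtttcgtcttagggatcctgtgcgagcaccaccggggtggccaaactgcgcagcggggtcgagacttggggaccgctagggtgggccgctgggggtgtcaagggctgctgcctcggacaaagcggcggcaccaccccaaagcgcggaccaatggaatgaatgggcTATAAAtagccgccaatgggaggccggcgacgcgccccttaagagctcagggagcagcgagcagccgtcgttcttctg

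Either hypoxia core was found in 13 of the 18 windows, belonging to 8 of the 10 genes, against 43.8% of all 32851 RefSeq windows of this length. ACGTG was in 7 windows (19.6% of all windows) and GCGTG in 9 (32.4%), and windows with both cores count in each. Some windows of one gene overlap, so the 18 are not separate sequences. TATAAA was in 2 windows (13.6% of all windows), those of Ckb, at position -28 from the start site, and Eno2, at -201 and on the opposite strand. The GC box GGGCGG was in 8 (35.7%). The median GC content was 62.2% in the members' windows and 52.7% over all windows. Such matches describe letters only, and no binding was measured here.

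As a group the 10 genes were among the more abundant transcripts of LS cells. Their summed level was 3303 ± 1159 FPKM in LS cells (SD, n = 35) and 1580 ± 1291 FPKM in NS cells (SD, n = 12). LS cells had a value above 0 for 6 to 10 of the 10 genes (median 10), and 18 of 35 had all 10. NS cells had 2 to 9 of them (median 7), and 0 of 12 had all 10. The plot of members found against genes found shows both counts side by side. The NS cell with the most genes (NS cell 8, with 7211) had 7 of the members, at a receptor-gene level of 114%. NS cells 9 and 16, with 6154 and 3499 genes, had 9 members each.

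**Figure D1:**
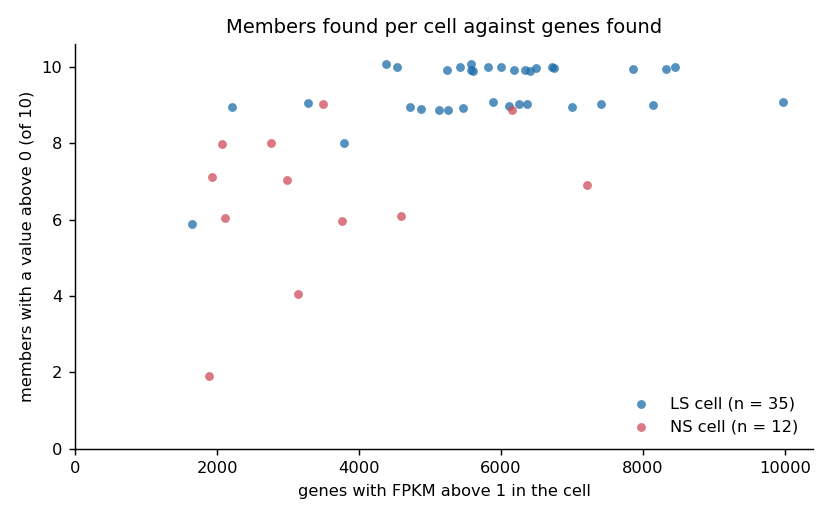
Number of the 10 genes with a value above 0 in a cell (vertical axis, points jittered slightly) against the number of genes above 1 FPKM in that cell (horizontal axis), 1 point per filtered cell, LS in blue (n = 35) and NS in red (n = 12). LS cells sit between 6 and 10 members and NS cells between 2 and 9.

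By mean FPKM, which is a level per kilobase of exon, the order in LS cells was Ckb, Aldoa, Pkm, Ldhb, Ldha, Eno1, Eno2, Pgk1, Aldoc and Hk1. In NS cells it was Ckb, Aldoc, Aldoa, Ldhb, Eno1, Pkm, Eno2, Pgk1, Hk1 and Ldha. Neighbours in the LS order were less than the larger of their SDs apart in every pair. Within single LS cells, Ckb exceeded Aldoa in 15 of 35, Eno2 exceeded Pgk1 in 16 of 35 and Aldoc exceeded Hk1 in 16 of 35, so these 3 pairs had no steady order. Aldoa was the highest of the 10 genes in 18 LS cells, Ckb in 14, Pkm in 2 and Ldhb in 1. The 12 NS cells were led by Ckb in 4, by Aldoa in 3, by Aldoc and Eno2 in 2 each and by Ldhb in 1. The levels also depend on the exon length by which reads were divided, which for Eno1 was 5379 bases against 2027 bases of its longest coding transcript with a consensus (CCDS) entry, and for Hk1 8532 against 4278 bases. Divided by the transcript length, Aldoa led in LS cells with 1484 ± 778 (SD, n = 35) over Ckb with 857 ± 502, and Eno1 moved from the sixth to the fourth place with 501 ± 289.

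**Figure D2:**
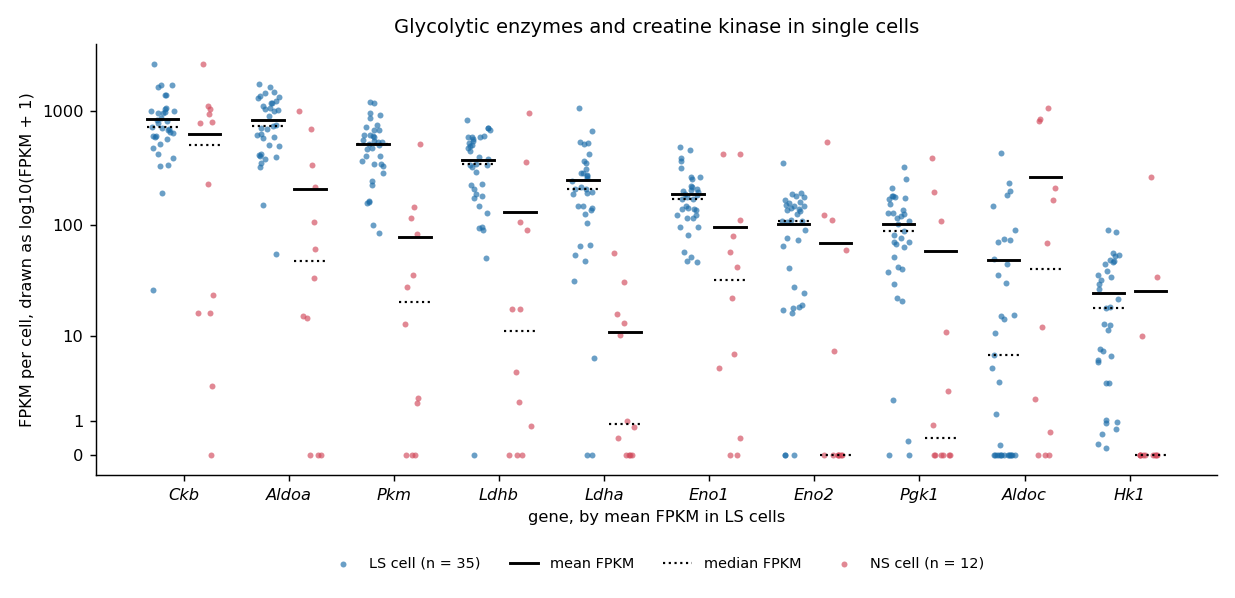
FPKM of each gene in each filtered cell, drawn as log10(FPKM + 1), for LS cells (blue, n = 35) and NS cells (red, n = 12), with the mean FPKM (solid line) and the median FPKM (dotted line) of the group. LS cells form 1 cloud for Aldoa, Pkm and Eno1, whereas NS cells spread from 0 to the LS range for most genes, and for Ldha 29 of 35 LS cells lie above the highest NS cell.

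The difference between LS and NS cells was described gene by gene, with 2-fold as the call. Of the 10 genes, 4 had a mean at least 2-fold higher in LS cells (Ldha, Pkm, Aldoa and Ldhb), and 2-fold higher means in LS cells were found for 38.6% of all 19515 genes with a value. Aldoc alone was at least 2-fold higher in NS cells, a direction taken by 36.3% of all genes. Among the 8084 genes whose mean reached 10 FPKM in either group, as those of all 10 members did, the shares were 31.6% and 42.2%. The median log2 ratio of LS to NS was 0.87 over the members, 0.064 over all genes and -0.38 over genes with at least 10 FPKM. The count of members higher in LS cells was thus near the background, and that of members higher in NS cells, 1 of 10, was below it.

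**Figure D3:**
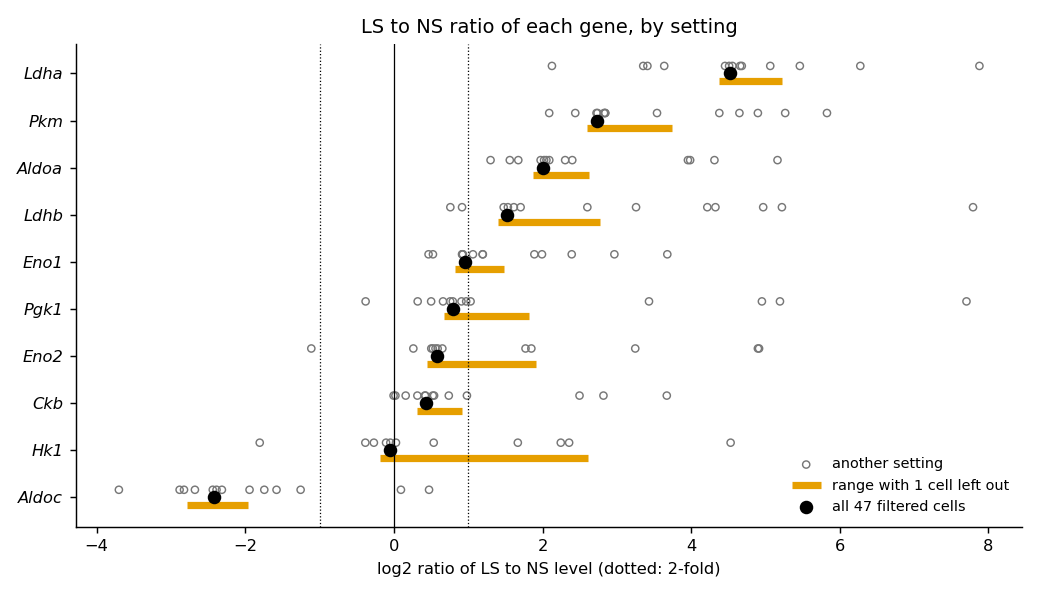
Log2 ratio of the LS level to the NS level for each gene (horizontal axis) in all 47 filtered cells (black), under each other setting that gave a value (open circles) and with 1 cell left out at a time (orange bar from lowest to highest). Dotted lines mark 2-fold; Ldha, Pkm and Aldoa lie to the right of 2-fold under every setting shown, and Aldoc crosses 0 under 2 settings.

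Hexokinase 1 opens the pathway by phosphorylating glucose. Hk1 (ENSMUSG00000037012, chromosome 10, 62268855 to 62379908, minus strand) ran from 0.155 to 90.6 FPKM in LS cells (median 18.2) and from 0 to 267 FPKM in NS cells (median 0). It was read in 35 of 35 LS cells and in only 3 of 12 NS cells. The means were 25 ± 24.8 FPKM (SD, n = 35) and 26 ± 76.6 FPKM (SD, n = 12), a log2 ratio of -0.057, but NS cell 11 supplied 85.6% of the NS sum and the ratio was 2.61 without it. Thinned to 140000 reads per cell, Hk1 was read in an expected 91.7% of LS cells and 25% of NS cells. The thinning evens out read totals only, and the genes found and the receptor-gene level still differed between the groups. Unthinned, the shares were 100% (exact binomial 95% interval 90.0% to 100%) and 25% (5.49% to 57.2%).

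Aldolase cleaves fructose 1,6-bisphosphate into a pair of triose phosphates. Aldoa (ENSMUSG00000030695, chromosome 7, 126795234 to 126800751, minus strand) ran from 55.7 to 1727 FPKM in LS cells (median 748) and from 0 to 1013 FPKM in NS cells (median 48.2). Of the NS cells, 6 lay below the lowest LS cell and 1 lay above the LS median. Mean Aldoa was 835 ± 437 FPKM (SD, n = 35) in LS cells and 208 ± 326 FPKM (SD, n = 12) in NS cells, 4.01-fold higher in LS cells (log2 2.0). NS cell 12 was the highest, and without it the log2 ratio was 2.63.

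Aldoc (ENSMUSG00000017390, chromosome 11, 78322968 to 78327781, plus strand) went the other way. LS cells ran from 0 to 432 FPKM with a median of 6.48 FPKM, and 13 of 35 had no read. NS cells ran from 0 to 1070 FPKM with a median of 41.5 FPKM, and 3 of 12 had no read. The groups overlapped over the LS range, and 7 of 12 NS cells lay above the LS median. The means were 49.9 ± 91.2 FPKM (SD, n = 35) and 268 ± 401 FPKM (SD, n = 12), 5.36-fold higher in NS cells (log2 -2.42). This direction did not hold under 2 of the 13 other settings. The log2 ratio was 0.093 in cells with at least 3000 genes (33 LS and 6 NS cells). It was 0.47 in cells with more excitatory than inhibitory markers (30 LS and 2 NS cells). In cells with a low receptor-gene level (31 LS and 3 NS cells) the ratio was -2.83. The NS cells with at least 3000 genes had receptor-gene levels from 2.91% (NS cell 16) to 114% (NS cell 8). NS cells 13 and 14, with fewer genes, had 4.22% and 3.29%.

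Within a cell the aldolase pair can be read without regard to the cell's total. Aldoc made up a median of 1.37% of the Aldoa and Aldoc level in LS cells (0% to 46.7%, n = 35 cells), and it was the larger of the pair in 0 of 35. In NS cells with at least 10 FPKM of the pair the median was 82.1% (0% to 100%, n = 11 cells), and Aldoc was the larger in 6 of 11. NS cells stood at the extremes: those 6 had 82.1% or more Aldoc and the other 5 had 1.90% or less. In the NS cells with at least 3000 genes the median was 1.90%. Reads of both genes were present in 7 of the 11 cells.

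Aldolase C being well known from astrocytes, its level was set beside 10 astrocyte markers. The summed astrocyte marker level ran from 26.8 to 2264 FPKM in LS cells (median 179) and from 0 to 1883 FPKM in NS cells (median 132). Of the 10 markers, 4 were at least 2-fold higher in LS cells and 5 in NS cells, against 38.6% and 36.3% of all genes with a value. None of the 10 was at 0 in a whole group. In LS cells the Pearson r of log2(FPKM + 1) of Aldoc with the marker sum was -0.25 (n = 35 cells), given as a description. NS cell 11, the highest for Aldoc with 1070 FPKM, had a marker sum of 129 FPKM, and NS cell 13 had 167 FPKM of Aldoc at a sum of 6.12 FPKM. NS cells 4 and 14, with 824 and 854 FPKM of Aldoc, had sums of 857 and 1883 FPKM. The 10 cells that the filters removed for reads of Gfap, S100b and Aqp4 together had a median Aldoc level of 133 FPKM in 7 LS cells (1.73 to 927) and 1042 FPKM in 3 NS cells (11.2 to 1688). In the cells with no read of Gfap, S100b or Aqp4 (6 LS and 4 NS cells), a setting added after the data were seen, the log2 ratio of Aldoc was -3.70. Nearly all of that NS sum was in NS cell 11 (1070 FPKM), as NS cells 7, 15 and 16 had 0, 0 and 2.09 FPKM. Whether RNA of astrocytes entered the Aldoc values was not tested beyond these measurements.

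**Figure D4:**
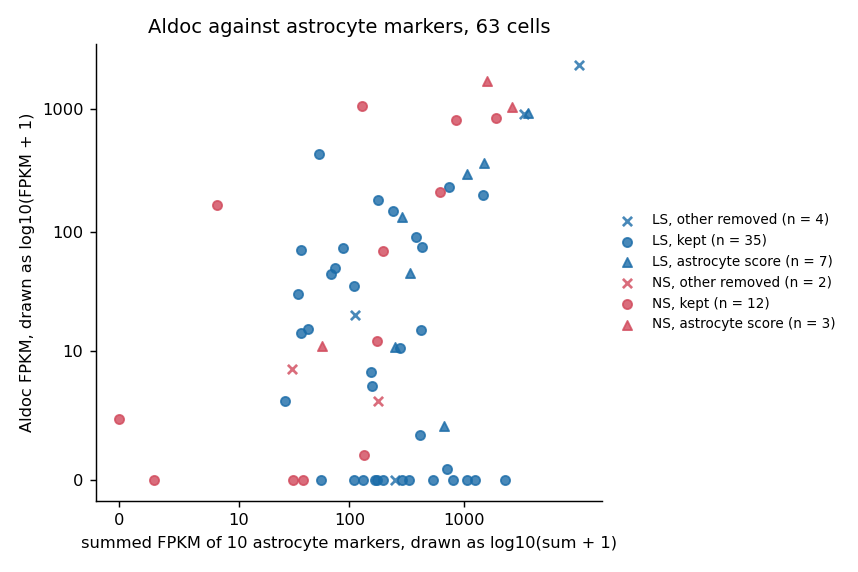
Aldoc FPKM against the summed FPKM of 10 astrocyte markers, both drawn as log10(value + 1), for all 63 cells, with kept cells as circles, cells removed by the astrocyte score as triangles and other removed cells as crosses. The LS cells without Aldoc span most of the range of the marker sum, and NS cell 11 combines 1070 FPKM of Aldoc with a marker sum of 129 FPKM.

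Phosphoglycerate kinase 1 makes the first ATP of the pathway. Pgk1 (ENSMUSG00000062070, chromosome X, 106187100 to 106203699, plus strand), whose promoter with its hypoxia cores is printed above, ran from 0 to 329 FPKM in LS cells (median 88.8) and from 0 to 389 FPKM in NS cells (median 0.426). It was read in 33 of 35 LS cells and 6 of 12 NS cells, and in an expected 90.7% and 41.7% at 140000 reads per cell. The means were 102 ± 76.9 FPKM (SD, n = 35) and 59.1 ± 121 FPKM (SD, n = 12), a 1.73-fold difference (log2 0.79). NS cell 14 held 54.8% of the NS sum, and the log2 ratio was 1.81 without it. In cells with a low receptor-gene level the Pgk1 ratio was -0.38, in cells without a read of Gfap, S100b or Aqp4 it was 5.19, and between medians over cells it was 7.70.

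Enolase forms phosphoenolpyruvate. Eno1 (ENSMUSG00000063524, chromosome 4, 150236721 to 150248879, plus strand), the general form, ran from 47.1 to 486 FPKM in LS cells (median 172) and from 0 to 426 FPKM in NS cells (median 32.7), where 7 of 12 cells lay below the lowest LS cell. Its means were 189 ± 109 FPKM (SD, n = 35) and 97.7 ± 156 FPKM (SD, n = 12), 1.93-fold higher in LS cells (log2 0.95, and 1.48 without NS cell 11). Eno2 (ENSMUSG00000004267, chromosome 6, 124760053 to 124769673, minus strand), the neuronal form, ran from 0 to 351 FPKM in LS cells (median 109) and from 0 to 533 FPKM in NS cells (median 0). It was read in 32 of 35 LS cells but in 5 of 12 NS cells, and at 140000 reads per cell the expected shares were 91.4% and 41.7%. Mean Eno2 was 104 ± 76.3 FPKM (SD, n = 35) and 69.8 ± 153 FPKM (SD, n = 12), a log2 ratio of 0.58 that was 1.91 without NS cell 13, the source of 63.7% of the NS sum. In cells with a low receptor-gene level (31 LS and 3 NS cells), a setting added after the data were seen, the ratio was -1.11.

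Eno2 made up a median of 34.7% of the enolase level in LS cells (0% to 77.1%, n = 35 cells) and exceeded Eno1 in 6 of 35. In NS cells the median was 4.04% (0% to 100%, n = 10 cells), with 4 cells at 72.4% or more and 6 at 8.08% or less, and only 4 of 10 had reads of both genes. The neuron-specific form was therefore the minor one in most LS cells by FPKM. The 3 LS cells without a read of Eno2 (LS cells 4, 13 and 43) had pan-neuronal marker sums of 48.3, 35.3 and 2.89 FPKM, against a median of 624 FPKM over LS cells. Over the 35 LS cells the r of Eno2 with that marker sum was 0.76, the highest of the 10 genes, and its r with the mitochondrial share of the library was -0.61. LS cell 43, with 1640 genes and no read of an excitatory or inhibitory marker, also lacked Pgk1 and Ldha and had 6 of the 10 genes.

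**Figure D5:**
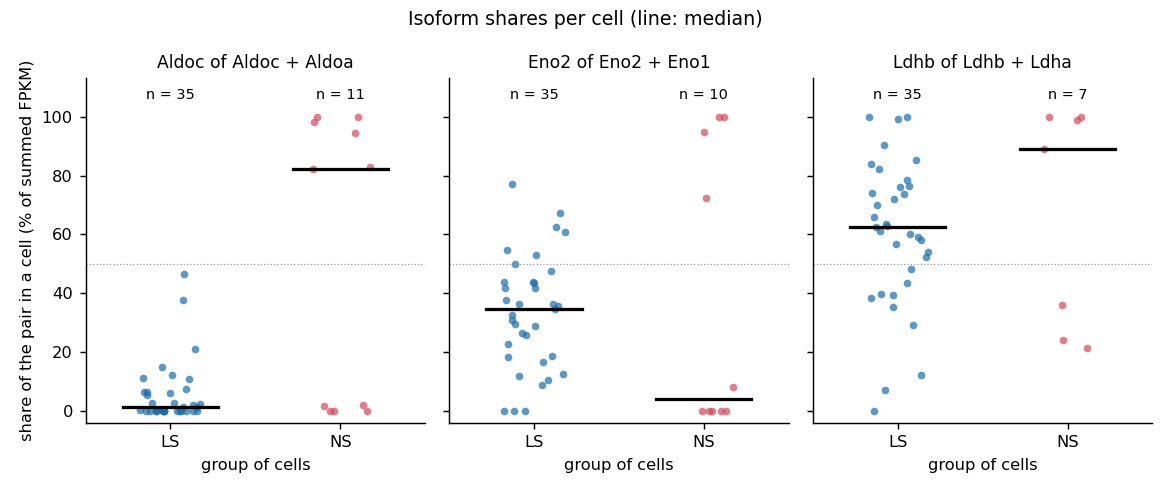
Share of Aldoc, Eno2 and Ldhb in the summed FPKM of the isozyme pair in each cell (percent), for LS cells (blue) and NS cells (red) with at least 10 FPKM of the pair, with the median as a line and 50% dotted. LS cells reach at most 46.7% Aldoc, whereas NS cells lie near 0% or above 82%.

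Pyruvate kinase completes glycolysis and yields its second ATP. Pkm (ENSMUSG00000032294, chromosome 9, 59656368 to 59679375, plus strand) ran from 85.6 to 1198 FPKM in LS cells (median 522) and from 0 to 516 FPKM in NS cells (median 20.8). The overlap was small: 9 of 12 NS cells lay below the lowest LS cell, 18 of 35 LS cells lay above the highest NS cell, and 0 NS cells exceeded the LS median. Mean Pkm was 520 ± 280 FPKM (SD, n = 35) against 78.5 ± 146 FPKM (SD, n = 12), 6.63-fold higher in LS cells (log2 2.73). NS cell 12 held 54.8% of the NS sum, and the log2 ratio was 3.75 without it. The gene-level table does not separate the M1 and M2 splice forms.

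Lactate dehydrogenase A had the largest LS to NS ratio of the 10 genes in the filtered cells. Ldha (ENSMUSG00000063229, chromosome 7, 46841475 to 46855627, plus strand), with the hypoxia cores and cAMP element in the promoter printed above, ran from 0 to 1064 FPKM in LS cells (median 207) and from 0 to 56.6 FPKM in NS cells (median 0.880). Most LS cells, 29 of 35, were above the highest NS cell. Mean Ldha was 249 ± 217 FPKM (SD, n = 35) and 10.8 ± 17.4 FPKM (SD, n = 12), 23-fold higher in LS cells (log2 4.52, and 5.22 without NS cell 6). Pooled over cells, 32558 LS reads stood against 160 NS reads, a log2 ratio per pooled total of 4.68 (counting interval 4.46 to 4.91). The gene ranked 131st by mean among all genes in LS cells and 5548th in NS cells. Of the 5 NS cells that the filters removed, 3 had more Ldha than any NS cell that was kept, NS cell 5 with 414 FPKM, NS cell 17 with 401 FPKM and NS cell 1 with 207 FPKM. With all 46 LS and 17 NS cells the log2 ratio was 2.13, below the 2.44 of Pkm. Ldha also did not have the largest ratio in cells with more excitatory markers, in cells with a low receptor-gene level and in cells without a read of Gfap, S100b or Aqp4, where Eno2 (4.91), Ldhb (7.79) and Pkm (5.27) were higher.

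Ldhb (ENSMUSG00000030246, chromosome 6, 142490249 to 142507957, minus strand) ran from 0 to 839 FPKM in LS cells (median 347) and from 0 to 965 FPKM in NS cells (median 11.1), where 2 of 12 cells were above the LS median. Mean Ldhb was 376 ± 221 FPKM (SD, n = 35) and 131 ± 283 FPKM (SD, n = 12), 2.88-fold higher in LS cells (log2 1.52). NS cell 12 supplied 61.5% of the NS sum, and without it the log2 ratio was 2.78. Both subunits were read in 32 of 35 LS cells, with Ldhb at a median of 62.6% of the pair (0% to 100%) and larger than Ldha in 25 of 35. In 7 NS cells with at least 10 FPKM of the pair, the median Ldhb share was 89.1% (21.3% to 100%), and Ldhb was the larger in 4 of 7.

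Creatine kinase B, which stands outside glycolysis, had the highest mean FPKM of the 10 genes in both groups. In LS cells the median of Aldoa (748 FPKM) was above that of Ckb. Ckb (ENSMUSG00000001270, chromosome 12, 111669361 to 111672338, minus strand) ran from 26.8 to 2601 FPKM in LS cells (median 730) and from 0 to 2584 FPKM in NS cells (median 509). The ranges nearly coincided, although 5 of 12 NS cells lay below the lowest LS cell and 6 of 12 above the LS median. Mean levels were 853 ± 500 FPKM (SD, n = 35) in LS cells and 631 ± 766 FPKM (SD, n = 12) in NS cells, a log2 ratio of 0.43. Its value was 0.91 without NS cell 14, and -0.0056 when all 63 cells were used. By mean level Ckb was the 21st gene of all in LS cells and the 22nd in NS cells.

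The other enzymes of the pathway were taken as a list of 20 genes, of which 7 were at least 2-fold higher in LS cells, 7 in NS cells and 6 in neither. Over all genes with a value, 38.6% were higher in LS cells and 36.3% in NS cells by that call. Of the 11 whose mean reached 10 FPKM in either group, 6 were higher in LS cells and 2 in NS cells (31.6% and 42.2% of all such genes). Gapdh, the glyceraldehyde phosphate dehydrogenase often used as a reference gene, had 548 ± 250 FPKM in LS cells (SD, n = 35) and 244 ± 221 FPKM in NS cells (SD, n = 12), a log2 ratio of 1.17. Triose phosphate isomerase Tpi1 had 319 ± 144 and 59.9 ± 119 FPKM (log2 2.41), and phosphoglycerate mutase Pgam1 had 89.2 ± 66.6 and 37.5 ± 58.3 FPKM (log2 1.25). Of the phosphofructokinases, which set the pace of the pathway, Pfkl had a log2 ratio of 2.58, Pfkm 0.83 and Pfkp -0.25. Glucose phosphate isomerase Gpi1 stood at 0.96, bisphosphoglycerate mutase Bpgm at 1.28 and the muscle enolase Eno3 at 4.42, the last with reads in 8 LS cells and 1 NS cell. Hexokinase Hk2 was among those higher in NS cells (log2 -4.18), with 71.1% of its NS sum in NS cell 11. A further 2 genes of the list were at 0 in every LS cell.

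Around Ckb, a list of 6 further creatine genes had 2 at least 2-fold higher in LS cells, 1 in NS cells and 3 in neither. Of all genes with a value, 38.6% were higher in LS cells and 36.3% in NS cells by that call. Mitochondrial creatine kinase Ckmt1 had 40.9 ± 62.1 FPKM in LS cells (SD, n = 35) and 27.8 ± 90.9 FPKM in NS cells (SD, n = 12), with 94.6% of the NS sum in NS cell 12. Gatm, which catalyses the first step of creatine synthesis, had a log2 ratio of 3.31 and was read in 16 LS and 2 NS cells. The muscle form Ckm, read in 2 LS cells and 1 NS cell, had a log2 ratio of -5.22. Gamt, the methyltransferase of the next step, had a log2 ratio of -0.10. LS cell 39 held 90.7% of its LS sum and NS cell 9 held 96.1% of its NS sum, and both medians were 0.

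Among themselves the 10 genes varied together only loosely. Over the 35 LS cells the Pearson r of log2(FPKM + 1) had a median of 0.17 over 45 pairs, from -0.28 to 0.61, and 37 pairs were above 0. These are descriptions, since all genes of a cell share its library and depth. The highest values were those of Aldoa with Eno2 (0.61), Eno2 with Ldhb (0.60) and Aldoa with Eno1 (0.57). By Spearman rank correlation these pairs had 0.49, 0.52 and 0.62. Eno2 with Pgk1 (0.65) and Aldoa with Pgk1 (0.64) were then higher, so the order of pairs depended on the measure. Aldoc had the lowest median r with the other members (-0.055), and Aldoa and Pkm had the highest (0.37 each). In NS cells the median over the 45 pairs was 0.059.

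Of the 6122 genes with a value in at least 50% of LS cells, those closest to a member by r were mostly not members. The gene closest to Eno2 was Aplp1 (r 0.92, and 0.78 over the 32 cells with Eno2), before Stmn3 (0.88, and 0.64 over those cells). Ldhb was closest to Rab3a (0.83), Pfn2 (0.74) and Ndrg4 (0.74), with 0.80, 0.59 and 0.59 over the 34 cells with Ldhb. Ldha was closest to Dstn (0.83), Mtch1 (0.75) and Smdt1 (0.72), but over the 33 cells with Ldha these fell to 0.52, 0.29 and 0.23. Pgk1 was closest to Tspan3 (0.80), Sra1 (0.73) and Gabarapl2 (0.73), with 0.66, 0.59 and 0.58 over the 33 cells with Pgk1. For Aldoa these were Ndfip1 (0.77), Mif (0.76) and Calm3 (0.75), for Pkm Atp5a1 (0.68), Hsp90ab1 (0.65) and Dusp8 (0.59), and for Ckb Mlf2 (0.65), Gabarapl1 (0.65) and Rpl12 (0.61). Eno1 was the one gene with a member among its closest, Aldoa (0.57), between 2610301B20Rik (0.60) and Mlf2 (0.56). Hk1 was closest to Pcm1 (0.68), Tcaf1 (0.66) and Dnaja1 (0.64). The genes nearest to Aldoc were Kcnh1 (0.57), Zbtb17 (0.55) and Gmeb1 (0.54), but over the 22 cells with Aldoc these fell to 0.24, 0.36 and 0.19.

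Near-identical copies could take reads from a few members, and the counting rule for such reads is not given in the sources used here. Of the listed copies 4 were in the table, and the largest was Eno1b at 3.59 ± 6.07 FPKM in LS cells (SD, n = 35), read in 30 of 35, against 189 FPKM of Eno1. Aldoart1, Aldoart2 and Pgk1-rs7 had means of at most 1.95 FPKM in either group. Exons of Aldoa, Pkm and Hk1 overlap those of another annotated gene over 0.674%, 15.3% and 1.84% of their length, respectively, and the strand setting of the counting is not given in the sources used here.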

How the data were processed

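Single somata were sequenced by Smart-seq2, which copies full-length mRNA into cDNA and amplifies it. The authors trimmed paired reads with AfterQC, aligned them to GRCm38 with STAR 2.5.3a (version per the submitters' processing notes), counted them per gene with featureCounts and deposited FPKM values made with scater; replicate cells were not pooled. Though the table is named for counts, it holds FPKM. Of its per-cell columns 0 stayed unused.

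Cells were filtered again by the rules of the study: LS cell 1 and NS cell 1 were left out for low cDNA by name, then cells with fewer than 1000 genes above 1 FPKM (1 further cell), a mitochondrial share above 25% (0 cells), or reads of every marker of a product score (Gfap, S100b and Aqp4, 10 cells; Olig1, Olig2 and Mbp, 1 cell; Slc17a7, Neurod2, Gad1 and Gad2, 2 cells). This left 47 of 63 cells, fewer than the study analysed, and the product scores removed more cells here than the study reports. The main ratio is the log2 of the mean FPKM over LS cells to that over NS cells, without a pseudocount, and 2-fold was used as the call. Whole reads were recovered from the FPKM steps and exon lengths of GENCODE M21, with all 545 member values above 0 whole within 0.01 read, for depth, pooled ratios, shares of cells and thinning to 140000 reads. A cell with no read is not thereby a cell without expression, and 0 of 12 NS cells would allow a share of up to 26.5% (exact binomial 95% interval). The 4 rows with a repeated symbol were left out. The recovery was tested on simulated data, for genes whose annotated length fitted only.

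The 10 members and the gene lists (other glycolytic enzymes, regulators, creatine genes, transporters, pyruvate entry, near-identical copies and markers of cell types) were chosen with earlier results of these data known. Named genes are the members, list genes with a mean of at least 10 FPKM in either group, the copies, and for each member the 3 genes with the highest r in LS cells. Some genes that this rule takes are not reported here. Cells were not taken as replicates, so the groups were compared without a test, and batches were not examined because the labels give none. Alternatives were other sets of cells, medians, log2 means with pseudocounts of 1 and 0.1, other totals, pooled reads and each cell left out in turn; the cells with low receptor-gene level, those without 3 astrocyte markers and the transcript length were added after the data were seen. Python 3.11.15, numpy 2.4.6, pandas 2.3.3, scipy 1.17.1 and matplotlib 3.10.9 were used.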

Additional observations from a re-analysis of the deposited data

How the results depend on the processing

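Aldoa, Pkm and Ldha were at least 2-fold higher in LS cells under all 13 settings other than leaving out single cells, and Ldhb and Aldoc were past 2-fold in their own directions under 11 of 13. The log2 ratio of Aldoc reversed to 0.093 in cells with at least 3000 genes and to 0.47 in cells with more excitatory than inhibitory markers, with 6 and 2 NS cells left, and the cause was not tested. The median log2 ratio of the members, 0.87, became 3.04 in cells without a read of Gfap, S100b or Aqp4, 4.30 with medians over cells (over the 8 members with a ratio), and 3.34 and 4.92 with means of log2(FPKM + 1) and log2(FPKM + 0.1). The count of members at least 2-fold higher in LS cells was 4, with 31.6% of all genes of at least 10 FPKM. It became 8 in cells with at least 3000 genes (40.7% of those genes) and 7 in cells with more excitatory markers (53.3%). In cells without those astrocyte reads it was 7 (52.6%). Cells with a low receptor-gene level gave 5 (65.3%), 1 of them with an NS level of 0. With LS cell 1 and NS cell 1 kept it was 5 (30.6%). Medians gave 8 (89.3%), 2 of them with an NS median of 0. The log2 mean gave 9 at either pseudocount (45.2% with 1 and 56.5% with 0.1). The count higher in NS cells, 1 with 42.2% of those genes, became 0 in cells with at least 3000 genes (35.6%) and 0 in cells with more excitatory markers (26.2%), and 2 in cells with a low receptor-gene level (18.4%) and 2 in those without astrocyte reads (33.1%). In NS cells with at least 3000 genes the median Aldoc share was 1.90% and the median Ldhb share 36.1%. Medians gave no ratio for Eno2 and Hk1, whose NS median is 0, and the low receptor-gene level gave none for Hk1.

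No paired analysis was possible because the replicate numbers only name single cells and no test was made. With 12 NS cells, and 1 cell holding a large part of the NS sum of several members, a mean ratio moves with that cell. The part of depth in the ratios was not tested.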

Other observations

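Further lists held genes that bring glucose in, pass lactate and lead pyruvate into mitochondria. Of 8 transporters, 4 were at least 2-fold higher in LS cells and 2 in NS cells. Over all genes with a value, the shares to set beside the list counts of this paragraph were 38.6% and 36.3%. Bsg (basigin), the chaperone of the lactate transporters, had 272 ± 158 FPKM in LS cells (SD, n = 35), where every cell had reads, and 83.8 ± 120 FPKM in NS cells (SD, n = 12), where 5 of 12 had reads, a log2 ratio of 1.70. The glucose transporters Slc2a1 and Slc2a3 had log2 ratios of 0.84 and 0.22, and the lactate transporter Slc16a3 had -3.48, with reads in 2 NS cells. Of 11 genes of pyruvate entry, 5 were at least 2-fold higher in LS cells and 1 in NS cells. Among them the pyruvate dehydrogenase subunit genes Pdhb and Pdha1 had log2 ratios of 1.13 and 1.96, the pyruvate carrier Mpc2 3.43 and the kinase Pdk2 1.44. Of 6 regulators, 1 was higher in LS cells and 3 in NS cells, namely Pfkfb1, Pfkfb3 and Pfkfb4 (log2 -3.78, -3.32 and -2.76), whose NS sums came to 100%, 64.4% and 92.5% from 1 cell each. Hif1a, the hypoxia factor subunit, had a log2 ratio of 0.46.

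Other marker lists stand beside these values. At least 2-fold higher in LS cells were 5 of 6 pan-neuronal, 4 of 5 excitatory, 0 of 5 inhibitory, 2 of 8 oligodendrocyte, 1 of 7 microglia, 2 of 6 endothelium and 4 of 4 blood markers. At least 2-fold higher in NS cells were 0, 1, 4, 5, 3, 3 and 0 of them. Over all genes with a value, the shares in these directions were 38.6% and 36.3%. LS cell 45 held 95.6%, 98.2%, 99.5% and 77.2% of the LS sums of the blood markers Hba-a1, Hbb-bs, Hbb-bt and Alas2. The summed microglia level was 0 to 3181 FPKM in LS cells (median 334) and 0 to 9954 FPKM in NS cells (median 555). Their part in the values of the 10 genes was not tested.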
